A study of Rattus norvegicus with 107 samples.

Results

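Genes that colonocytes use to move salt and water were followed through the suckling period of the rat, in colon and, as a contrast, in brain. The set has 10 genes chosen by name: Slc26a3, Slc9a3, Scnn1a, Scnn1b, Scnn1g, Atp12a, Aqp8, Cftr, Guca2a and Guca2b. Of these, 9 have a probe named for them on the array, with 1 probe each, out of 22523 probes in all, of which 13793 bear a gene symbol (13337 different symbols). Cftr, the apical chloride channel, has no named probe and was not analysed here. Each value is the bead signal of a probe after quantile normalisation, in arbitrary units, and differences are on the log2 scale.

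The samples came from untreated Sprague Dawley rats, with age as the compared factor. Colon and the right hemisphere of the brain were taken on embryonic day 21, called PND -1 here, with 5 colon and 6 brain samples, and on PND 1, 2, 3, 5, 7, 10, 15 and 22, with 6 samples per tissue at each age. The PND -1 pups were delivered by Caesarean section from a single dam, so age and dam cannot be told apart there. The litter of each later pup, and whether samples were pooled, are not given in the sources used here, and p-values measure the spread between these samples. RNA came from small samples of colon tissue with the cell types unseparated. Their position along the colon is not given in the sources used here. In such tissue, fewer cells of a type and less RNA per cell cannot be told apart.

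The colon recovers salt and water from the gut contents. At the apical face of surface cells, sodium enters through the exchanger of sodium for protons, NHE3, coupled to chloride uptake by the exchanger of chloride for bicarbonate, DRA, or through the amiloride-sensitive sodium channel ENaC, which in the distal colon is under the control of aldosterone. The colonic proton pump exchanges protons for potassium, aquaporins pass water, and the peptides guanylin and uroguanylin act on the receptor guanylate cyclase C, whose product cGMP lowers sodium uptake and raises chloride secretion.

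The colon arrays had median raw signals of 43.6 to 123 before normalisation, 10276 to 12277 probes detected above the negative control beads of the array (detection p under 0.05), and a detection limit of 65.6 to 72.9 on the normalised scale. As a check of the tissue labels, the mean log2 signal of 13 epithelial marker genes was 11.57 to 11.81 in colon samples of PND 22, against 6.04 to 6.15 in brain samples of that age. Colon PND -1 replicate 4 stood apart, with a median correlation to the other colon samples of its age of 0.9712, against a median of 0.9874 for that value over all colon samples. Its list of 12 brain marker genes was at 8.15, against 6.38 to 6.46 in the other colon samples of PND -1, and its list of 7 small intestinal enterocyte genes at 8.42, against 6.9 to 7.45. Colon PND 1 replicate 4 had a goblet cell list (6 genes) at 8.28, against 9.3 to 9.99 in the other samples of its age. Without PND -1 replicate 4, the genes called numbered 1 for PND 1 compared with PND -1 and 7 for PND 22 compared with PND -1. Among the fits that left out 1 sample, 588 to 764 and 5353 to 5686 of 22523 probes were called for these comparisons. Without that replicate, 7 genes were called for colon compared with brain at PND -1 and 9 over the ages. There the fits that left out 1 sample called 7073 to 7277 and 7990 to 8347 probes.

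All 9 measured genes changed over the 9 ages in colon (limma F test, adjusted p under 0.01 over all probes), and each had its highest mean at PND 22. Of all probes, 36.7% passed the same test. The ratio of the highest to the lowest age mean was 23.1 for Slc9a3, 13.9 for Slc26a3, 9.65 for Atp12a, 8 for Scnn1a, 6.05 for Aqp8 and 4.04 for Scnn1b. It was 2.14 for Guca2a, 1.54 for Guca2b and 1.35 for Scnn1g. The median ratio of the 9 genes was 6.05, beside 1.2 over all probes and 1.45 over the 11024 probes detected in every colon sample of at least 1 age. The call of Scnn1g, the gamma subunit of ENaC, was marginal at adjusted p = 0.00998. It was lost in 37 of the 53 fits that left out 1 sample, with adjusted p up to 0.0314 without PND 22 replicate 3. The other 8 genes had adjusted p-values between 6.07e-26 for Slc9a3 and 0.00208 for Guca2b, and without PND -1 replicate 4 all 9 were called, Scnn1g at adjusted p = 0.00704.

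**Figure D1:**
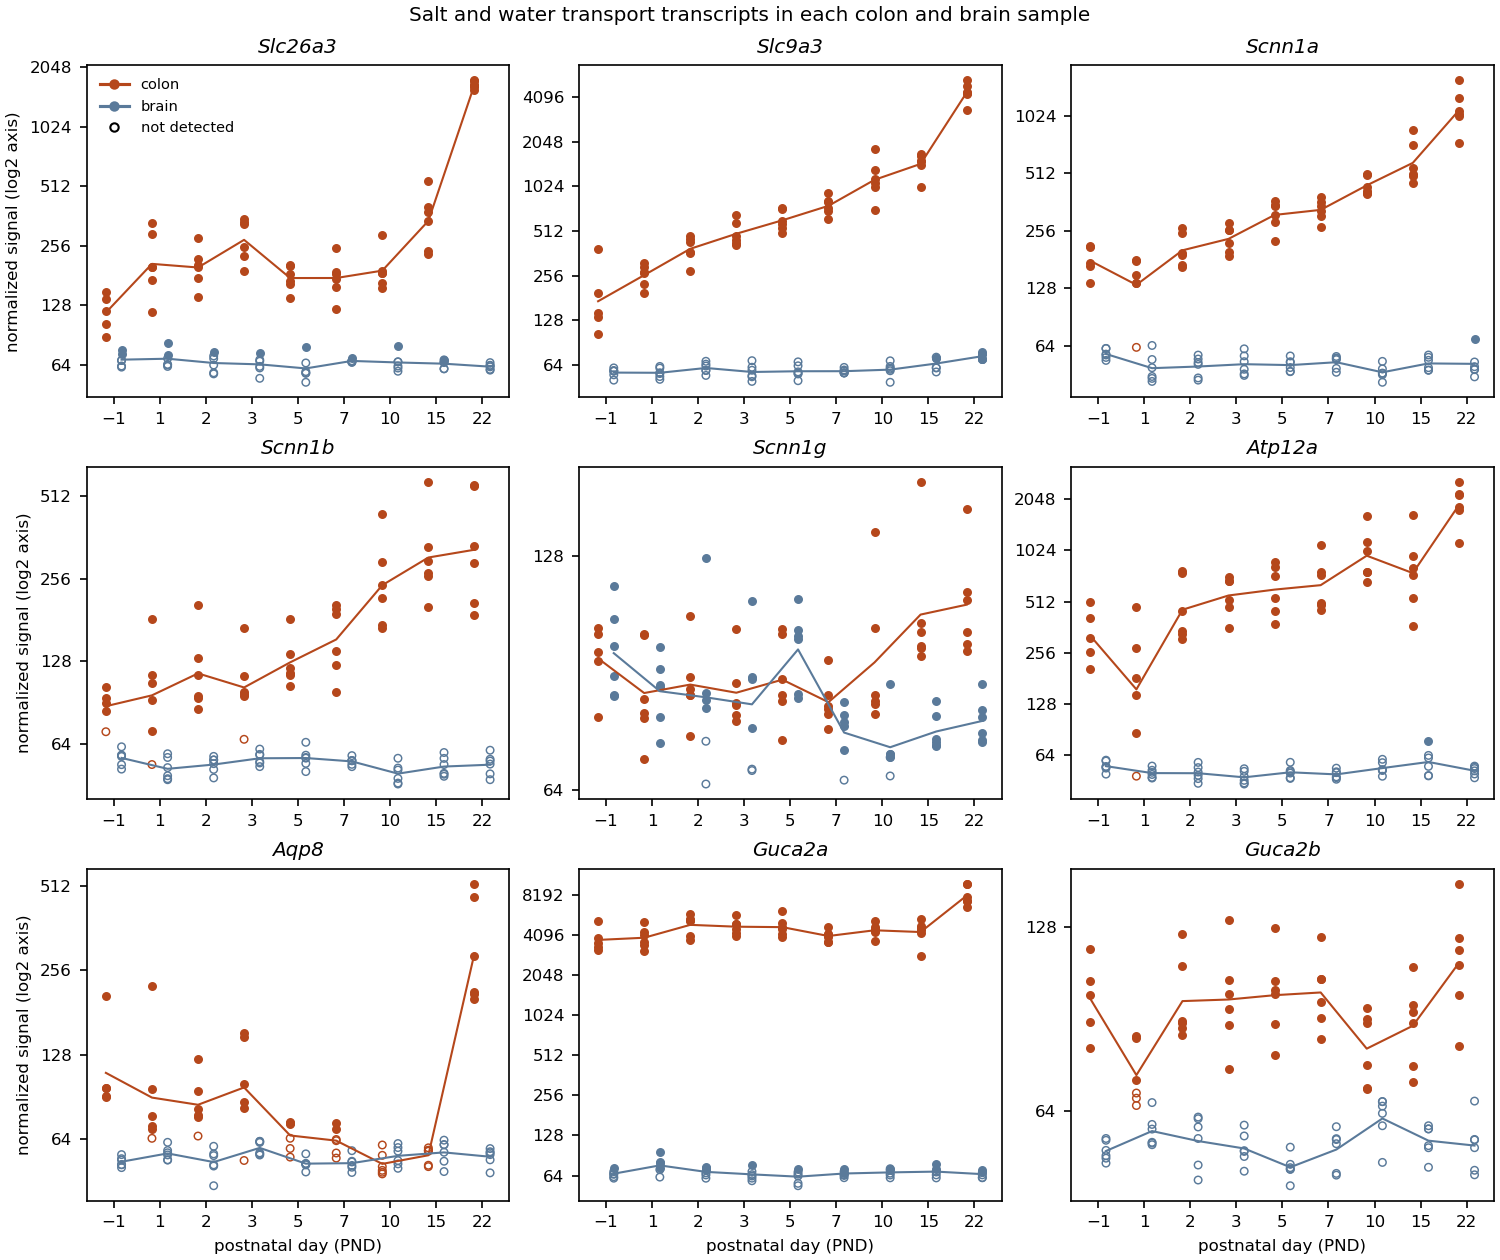
Normalised signal of 9 transport transcripts in each colon and brain sample against postnatal day, on a log2 axis. Each point is a sample, open points were not detected, and lines join the means of the log2 signals. In colon every transcript has its highest mean at PND 22, while most brain samples were not detected for the transcripts other than Scnn1g.

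The steps between ages differed in how many of the genes they moved. From PND -1 to PND 1, 1 gene rose and 8 were not called, beside 3.73% of all probes called and 1.74% called higher at the later age. From PND 1 to PND 3, 3 rose (Slc9a3, Scnn1a and Atp12a), beside 1.72% of probes called and 0.91% higher. From PND 5 to PND 7, none of the 9 was called by limma, none had an unadjusted limma p under 0.05 (the smallest was 0.0938, for Slc9a3, whose unadjusted exact permutation p was 0.0303), and 1.21% of all probes were called, 0.759% as higher. From PND 3 to PND 10, Slc9a3, Scnn1a and Scnn1b rose and Aqp8 fell, beside 6.4% of probes called, 3.13% higher and 3.26% lower. From PND 10 to PND 15 Slc26a3 alone rose, beside 1.94% of probes called and 1.3% higher. The step from PND 15 to PND 22 moved most of them: Slc26a3, Slc9a3, Scnn1a, Atp12a, Aqp8 and Guca2a rose and 0 fell, beside 18.4% of probes called in either direction and 9.13% higher at PND 22. The median difference of the 9 genes was 0.92, beside 0.01 over all probes. Over the whole period, 7 of the 9 were higher at PND 22 than at PND -1, beside 25.3% of probes called and 11.6% higher, and 8 were higher at PND 22 than at PND 3, beside 24.4% called and 11.7% higher.

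Slc26a3 (chr6:53751415-53792300 in the rat assembly GRCr8) encodes DRA, the chloride and bicarbonate exchanger whose loss in humans causes congenital chloride diarrhoea. In colon its normalised signal was 119.3, 88.42, 149.7, 138.6 and 103.5 in the PND -1 samples, and the means at PND 1, 2, 3, 5, 7, 10, 15 and 22 were 219.9 ± 80.4, 203.4 ± 46.5, 281.6 ± 67.2, 177.5 ± 24.8, 180.1 ± 41.8, 195.9 ± 47.5, 357.6 ± 116 and 1667 ± 73.2 (SD, n = 6 each). The means up to PND 10 lay between 119.9 and 281.6, and the last step was the largest of those tested. At PND 22 the samples lay between 1560 and 1760 with a median of 1660, against 234 to 547 with a median of 360 at PND 15. The ages did not overlap, and the difference was 2.28 ± 0.19 (SE; 95% confidence interval 1.9 to 2.67), a 4.87-fold increase (limma, adjusted p = 7.24e-14; two-sided exact permutation p = 0.00216, the smallest that 6 against 6 samples allow). The PND 22 samples were also the most uniform of any age, with a coefficient of variation of 4.39%, against 32.5% at PND 15.

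2 smaller steps of Slc26a3 were called with less certainty. It rose by 0.82 ± 0.20 (SE) at PND 1 compared with PND -1 (adjusted p = 0.00559; exact permutation p = 0.0216), and the values at both ages overlapped. That call was lost in 6 of 11 fits that left out 1 sample, PND -1 replicate 2, 3 or 6 or PND 1 replicate 1, 3 or 4, with adjusted p between 0.0106 and 0.0296, and it held without PND -1 replicate 4 (0.90, adjusted p = 0.0038). It rose by 0.83 at PND 15 compared with PND 10 (adjusted p = 0.00452), a call lost without PND 10 replicate 1, 2, 3, 4 or 5 or PND 15 replicate 2, 4 or 6, at adjusted p between 0.0104 and 0.0314.

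Slc9a3 (chr1:30953215-30996209) encodes NHE3, the apical exchanger of sodium for protons. Its mean was higher at each successive age: 192.3 ± 112 at PND -1 (SD, n = 5), then 261.2 ± 43.8, 394.5 ± 73, 498.3 ± 97.4, 611.5 ± 99, 763.7 ± 107, 1183 ± 378, 1473 ± 247 and 4450 ± 656 at PND 22 (SD, n = 6 each). The increase was spread over the suckling period, with the largest difference between the last 2 ages. The samples of PND 22 spanned 3370 to 5330 with a median of 4400, against 1010 to 1710 with a median of 1530 at PND 15, with no overlap. The difference was 1.60 ± 0.19 (SE), or 3.03-fold (adjusted p = 1.45e-09; exact permutation p = 0.00216).

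Slc9a3 had already moved in the first days. The range was 410 to 656 with a median of 461 at PND 3, against 196 to 314 with a median of 270 at PND 1, again without overlap, and the difference was 0.93 ± 0.19 (adjusted p = 0.00133). It rose by a further 1.21 ± 0.19 at PND 10 compared with PND 3 (adjusted p = 5.78e-06). Between PND 10 and PND 15 the difference was 0.36 (adjusted p = 0.413), and between PND -1 and PND 1 it was 0.58 (adjusted p = 0.059), which became 0.88 (adjusted p = 0.000875) when PND -1 replicate 5, the highest of its age at 384.6, was left out, and 0.52 (adjusted p = 0.138) without replicate 4. Over the whole span the PND 22 level exceeded that of PND -1 by 25.6-fold for Slc9a3 and 14.1-fold for Slc26a3, or 4.68 and 3.82 on the log2 scale, and without PND -1 replicate 4 these log2 differences were 4.61 and 3.91.

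The ENaC channel is built from an alpha, a beta and a gamma subunit (Scnn1a at chr4:159809187-159832409, Scnn1b at chr1:185861326-185915717 and Scnn1g at chr1:185736225-185770099 in GRCr8). Scnn1a, the alpha subunit, had means of 180.6 ± 32.2 at PND -1 (n = 5) and 140.7 ± 43, 205.7 ± 42, 234.8 ± 37.2, 314.3 ± 52.3, 332.1 ± 41.7, 445.6 ± 50, 598.3 ± 162 and 1126 ± 279 at the later ages (SD, n = 6 each). The mean was higher at each age after PND 1, as for Slc9a3. At PND 3 the range was 188 to 282 (median 240), against 62.6 to 180 (median 143) at PND 1, with no overlap and a difference of 0.80 ± 0.18 (SE; adjusted p = 0.00275). The lowest of these, PND 1 replicate 4 at 62.6, was not above background, and the call was lost without it (0.58, adjusted p = 0.0194) or without PND 3 replicate 5 (adjusted p = 0.0113). Scnn1a rose by 0.93 at PND 10 compared with PND 3 (adjusted p = 0.000119). At PND 22 the range was 741 to 1580 (median 1070), against 456 to 870 (median 525) at PND 15, which overlapped, with a difference of 0.92 ± 0.18 (adjusted p = 3.6e-05; exact permutation p = 0.00433).

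Scnn1b, the beta subunit, rose in mid-suckling and was not called at the last step. Its means were 88.51 ± 11.9 at PND -1 (n = 5) and 103.6 ± 44.8, 121.3 ± 44.6, 106.9 ± 34.1, 129.2 ± 28.5, 159.4 ± 44.6, 256.8 ± 102, 323.5 ± 131 and 357.3 ± 166 (SD, n = 6 each). At PND 10 the samples lay between 170 and 442 (median 231), against 66.6 to 169 (median 98.4) at PND 3, just without overlap, and the difference was 1.24 ± 0.26 (SE; adjusted p = 0.000642). At PND 22 they lay between 189 and 561 (median 314), against 203 to 576 (median 283) at PND 15. These ranges nearly coincided, and the difference was 0.09 with a 95% confidence interval of -0.43 to 0.62 (adjusted p = 0.862). The spread among samples of an age was wide, with a coefficient of variation of 46.4% at PND 22 and 40.5% at PND 15.

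Scnn1g, the gamma subunit, stayed close to the detection limit. Its age means ran between 83.11 and 111.9, and it was 0.38 ± 0.12 (SE) higher at PND 22 than at PND 3 (adjusted p = 0.00815), with overlapping ranges of 96.6 to 147 (median 107) at PND 22, against 78.5 to 103 (median 82.4) at PND 3. This call was lost when any of PND 3 replicates 1 to 5 or PND 22 replicates 3, 5 and 6 was left out (adjusted p between 0.0114 and 0.0477). Between PND 15 and PND 22 its difference was 0.04 with an interval of -0.19 to 0.27 (adjusted p = 0.857). Scnn1g and Scnn1b are neighbours on chromosome 1, with 91226 bases between them in GRCr8.

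Atp12a (chr15:34559209-34583866) encodes the catalytic subunit of the colonic proton and potassium pump. Its means were 339.3 ± 122 at PND -1 (n = 5) and 202.3 ± 157, 494.7 ± 218, 571.8 ± 140, 631.3 ± 206, 673.2 ± 246, 1000 ± 356, 841.5 ± 449 and 1952 ± 496 at the later ages (SD, n = 6 each). The samples at PND 3 lay between 360 and 719 (median 600), against 48.1 to 479 (median 163) at PND 1, and the difference was 1.84 ± 0.34 (SE; adjusted p = 0.000448), with overlap of the ranges. PND 1 was the age of widest spread, at a coefficient of variation of 77.4%, and its lowest sample, replicate 4 at 48.1, was not above background. At PND 22 the range was 1140 to 2590 (median 2010), against 366 to 1660 (median 773) at PND 15. The difference of 1.33 ± 0.34 passed the test (adjusted p = 0.00217; exact permutation p = 0.00433), although the ranges overlapped and the call was lost without PND 15 replicate 6 (1.12, adjusted p = 0.0135). Between PND -1 and PND 1 the difference was -1.05 (adjusted p = 0.0639), and it was -1.37 (adjusted p = 0.00815) without PND 1 replicate 5 and -1.13 (adjusted p = 0.0642) without PND -1 replicate 4.

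Aqp8 (chr1:187424314-187430243) encodes a water channel of the colonic surface epithelium, and its course was the reverse of a climb until the last age. Its probe was detected in 5 of 5 samples at PND -1, in 5 of 6 at PND 1, 2 and 3, in 3 at PND 5, in 2 at PND 7, in 0 at PND 10 and 15, and in 6 of 6 at PND 22. The measured means were 116.8 ± 50.9 at PND -1 (n = 5) and 100.5 ± 62, 86.58 ± 20.2, 104 ± 38.8, 66.32 ± 7.92, 63.49 ± 6.91, 52.4 ± 5.07, 56.15 ± 3.77 and 317.1 ± 141 (SD, n = 6 each). At PND 10 it was at least 1.44-fold lower than at PND 3, where an undetected group is set at the higher of the detection limit of each array and its own signal (adjusted p = 0.00455). That call was lost without PND 3 replicate 2 or 3 or PND 10 replicate 2 or 5, at adjusted p between 0.0111 and 0.0236. At PND 22 the samples lay between 202 and 520 (median 250), against 51.1 to 59.6 (median 58.1) at PND 15, where none was detected. Aqp8 was at least 4.34-fold higher at PND 22 (adjusted p = 3.84e-12; exact permutation p = 0.00216).

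The PND 22 signals of Aqp8 were 213.9, 202.4, 468.4, 286.5, 211.1 and 520 in replicates 1 to 6, a spread of 2.57-fold within the age. Compared with PND -1, Aqp8 at PND 22 was 1.41 ± 0.24 (SE) higher (adjusted p = 2.46e-06). The ranges overlapped at 1 sample, PND -1 replicate 4 with 207.8, and without it the difference was 1.64 (adjusted p = 1.14e-07).

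Guca2a (chr5:138522446-138524288) encodes guanylin, the main guanylate cyclase C ligand of the colon. It was detected in all 53 colon samples, and its means stayed between 3831 ± 843 at PND -1 (n = 5) and 4951 ± 855 at PND 2 (n = 6) until PND 15, where they were 4394 ± 852 (SD, n = 6). At PND 22 its mean was 8193 ± 1410 (SD, n = 6). The PND 22 samples lay between 6660 and 9940 (median 7640), against 2860 to 5430 (median 4520) at PND 15, without overlap. The difference was 0.91 ± 0.13 (SE), a 1.88-fold increase (adjusted p = 1.84e-07; exact permutation p = 0.00216). No other step between neighbouring ages that was tested was called for Guca2a.

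Guca2b (chr5:138532160-138534210) encodes uroguanylin, the related peptide of the small intestine and kidney, and was dim in colon, with age means of 73.67 to 113.8. It lay between 81.9 and 151 (median 114) at PND 22, against 71.4 to 110 (median 91.1) at PND 15, and the difference of 0.34 ± 0.13 did not pass the test (adjusted p = 0.0399). Without PND 22 replicate 2 it was 0.43 (adjusted p = 0.00714). Guca2a and Guca2b are neighbours on chromosome 5, 7871 bases apart in GRCr8.

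When the 9 age means of each gene were put in order, 72 pairs of neighbouring ages in that order were compared by exact permutation. Of these, 4 pairs did not overlap and had an adjusted p of 0.039, adjusted over the 72: PND 22 over PND 15 for Slc26a3, PND 22 over PND 15 for Slc9a3, PND 22 over PND 2 for Guca2a, and PND 10 over PND 7 for Scnn1a. In every other pair the samples of the neighbouring ages overlapped. The order of the ages was itself taken from these data, so these p-values only describe the pairs. The share of all probes without such overlap was not computed.

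Marker genes of the cell types in the colon wall moved over the same period. The mean log2 signal of the 13 epithelial genes averaged 11.7 at PND 22, against 11.06 at PND 15, and 10 of the 13 rose at PND 22 compared with PND 15, with a median difference of 0.47. The fibroblast and matrix list averaged 10.08 at PND 22, against 11.39 at PND 15, and 10 of its 10 genes fell. The smooth muscle list averaged 9.55 at PND 22, against 10.63 at PND 15, with 7 of 8 genes lower, and the goblet cell list 11.74, against 10.11, with 4 of 6 genes higher. These counts stand beside 18.4% of all probes called in either direction and 9.13% called higher at PND 22. Within PND 22, replicates 1 and 2 had the highest smooth muscle lists (9.95 and 10.54, against 8.84 to 9.37 in the others) and matrix lists (10.7 and 10.9, against 9.52 to 9.94). Both were then left out, a setting chosen after the data were seen. In it 7 genes were higher at PND 22 than at PND 15, beside 4339 of 22523 probes called in either direction. The added gene was Guca2b (0.50, adjusted p = 0.00307). Compared with PND 3, 8 genes were higher, beside 5506 probes called in either direction. With all samples kept, the probes called numbered 4145 and 5489.

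**Figure D2:**
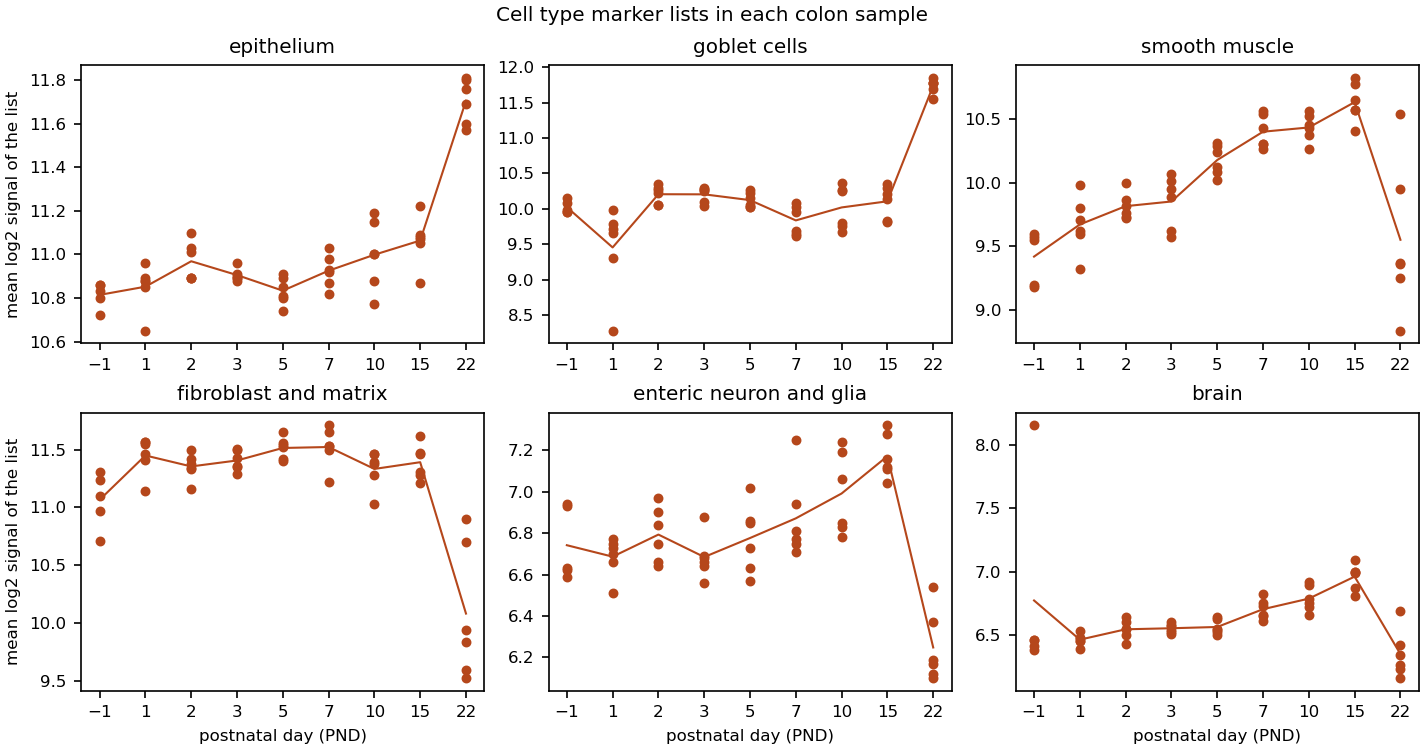
Mean log2 signal of 6 cell type marker lists in each colon sample against postnatal day, with lines through the age means. The epithelium and goblet cell lists are highest at PND 22, where the smooth muscle, matrix and enteric neuron lists are low, and PND -1 replicate 4 stands apart on the brain list at 8.15.

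Set against the epithelium list of the same sample, the genes separated into those that rose more than the list and those that did not. This scaling moves the median of all probes by -0.80 for PND 22 compared with PND 3, so the values are read against that shift. Relative to the list, 6 genes were higher at PND 22 than at PND 3: Slc9a3 by 2.37, Slc26a3 by 1.81, Scnn1a by 1.44, Atp12a by 0.97, Scnn1b by 0.87 and Aqp8 by 0.79. Guca2a differed by -0.02 (adjusted p = 0.86), while Scnn1g at -0.42 and Guca2b at -0.60 lay below 0 and above the shift of all probes. On this scale 21262 of the 22523 probes were called for PND 22 compared with PND 3 and 20883 for PND 22 compared with PND 15. Those totals count both directions, so a call alone sets no gene apart. The share of probes called above 0 on this scale was not computed. Between PND 15 and PND 22, Slc26a3 (1.64), Slc9a3 (0.96) and Aqp8 (1.75) were higher relative to the list. The list itself averaged 11.7 at PND 22, against 11.06 at PND 15, and that rise lowers every value here. The shift of all probes was not computed for this comparison, so values near or below 0 are not read as a fall. Scnn1a at 0.27 (adjusted p = 0.144), Atp12a at 0.69 (adjusted p = 0.0514) and Guca2a at 0.27 (adjusted p = 0.0309) were not called, and Scnn1g was at -0.60. The part of cell composition, or of the position sampled along the colon, in the changes was not tested.

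**Figure D3:**
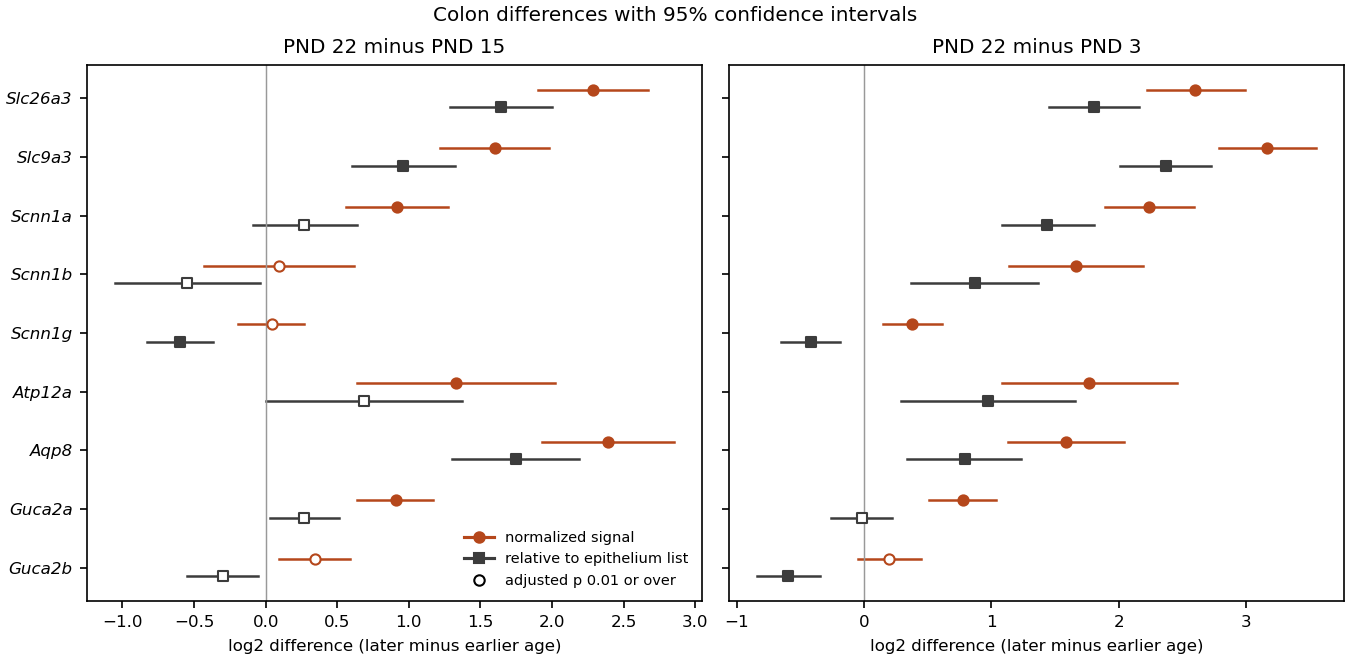
Log2 difference of each transcript in colon with its 95% confidence interval, PND 22 minus PND 15 on the left and PND 22 minus PND 3 on the right, for the normalised signal (circles) and relative to 13 epithelial genes (squares). Open symbols did not reach an adjusted p under 0.01. Slc26a3, Slc9a3 and Aqp8 are called above 0 on both scales in both comparisons, and Guca2a is called only on the normalised scale. Estimates for Scnn1a and Atp12a also lie above 0 throughout, but are not called relative to the list for PND 22 minus PND 15.

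The brain served as a contrast in which most of these transcripts were at background. Of 54 brain samples, the probes of Scnn1b, Aqp8 and Guca2b were detected in 0, Scnn1a and Atp12a in 1, Slc9a3 in 8, Slc26a3 in 10, Guca2a in 17 and Scnn1g in 47. Over the 9 ages in brain, 2 of the 9 genes were called, Slc9a3 (adjusted p = 0.000129) and Scnn1g (adjusted p = 0.0026), beside 35.4% of all probes. Slc9a3 was detected in all 6 brain samples of PND 22 and in 2 of PND 15, with a mean of 73.26 ± 3.71 (SD, n = 6) at PND 22, a level near the limit.

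Before birth 8 of the 9 genes already had a higher signal in colon than in brain, beside 32.8% of probes called in either direction and 15.8% higher in colon. The exception was Scnn1g, with 94.81 ± 9.48 (SD, n = 5) in colon and 96.61 ± 13 (SD, n = 6) in brain (difference -0.02, adjusted p = 0.919). Guca2a was at 3138 to 5248 in colon, against 61.2 to 73.4 in brain, where 1 of 6 samples was detected, with a measured difference of 5.83 (adjusted p = 3.85e-69), or 5.90 without colon replicate 4. Atp12a was at least 4.63-fold higher in colon, with a measured difference of 2.55, or 2.63 without that sample. The call of Scnn1b (0.63, adjusted p = 0.00835) was lost without colon PND -1 replicate 2, 3, 4 or 6 or brain PND -1 replicate 1, 3, 4, 5 or 6, at adjusted p between 0.0118 and 0.0295. Without colon replicate 4 it stood at adjusted p = 0.0168, leaving 7 genes called, and with the replicate number as a block at adjusted p = 0.012.

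At PND 22 all 9 were higher in colon, beside 38.4% of probes called in either direction and 19.3% higher in colon, and for each gene the samples of the tissues did not overlap, as for 15.9% of all probes in that direction. Guca2a was detected in 2 of 6 brain samples and differed by 6.95 as measured. Slc9a3 was 60.2-fold higher in colon, Atp12a at least 27.8-fold, Slc26a3 at least 24.5-fold, Scnn1b at least 4.8-fold, Aqp8 at least 4.32-fold and Guca2b at least 1.65-fold. Scnn1g differed by 0.50 (adjusted p = 7.28e-05). The change between PND 3 and PND 22 was larger in colon than in brain for 7 genes (interaction in the fit over both tissues), beside 21.2% of probes called and 10.3% called above 0. The difference of the changes was 2.81 ± 0.21 (SE) for Slc9a3, 2.64 ± 0.21 for Slc26a3, 2.23 ± 0.20 for Scnn1a, 1.74 for Scnn1b, 1.69 for Aqp8, 1.64 for Atp12a and 0.77 for Guca2a, and it was not called for Scnn1g (0.45, adjusted p = 0.0234, or 0.00502 with the replicate number as a block) or Guca2b (0.18, adjusted p = 0.403).

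Samples of an age also differed from one another. For each of the 36 pairs of genes, the log2 deviations of the 53 colon samples from the means of their ages were correlated, with p-values from 100000 permutations within ages, adjusted over the 36 pairs. In 7 pairs the adjusted p was under 0.01. The share among pairs of other probes was not computed, so this count alone does not set the genes apart. The alpha subunit Scnn1a varied with the pump Atp12a (r = 0.74, rho = 0.66, adjusted p = 0.00018 for both; raw permutation p = 1e-05, the smallest 100000 permutations give), and the sign was the same in 9 of 9 ages. Scnn1b varied with Atp12a (r = 0.64, rho = 0.59, adjusted p = 0.00018 and 0.00024) and with Scnn1a (r = 0.60, rho = 0.59, adjusted p = 0.00036 and 0.00018), also in 9 of 9 ages. Scnn1b and Scnn1g had r = 0.58 and rho = 0.46 (adjusted permutation p = 9e-04 and 0.00751), and Slc26a3 and Aqp8 r = 0.49 and rho = 0.51 (adjusted permutation p = 0.00113 and 0.000432), each with the same sign in 7 of 9 ages.

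Slc26a3 went the other way. Its deviations were opposed to those of Atp12a (r = -0.62, rho = -0.61, adjusted permutation p = 9e-04 and 0.000432) and of Scnn1a (r = -0.55, rho = -0.46, adjusted permutation p = 9e-04 and 0.00751), with the same sign in 9 of 9 ages for both. The pairs were also correlated without the 2 samples farthest from the median of the gene named first. Samples far out only in the gene named second were kept. Then r was 0.65 for Scnn1a and Atp12a, 0.55 for Scnn1b and Atp12a and 0.51 for Scnn1a and Scnn1b. It was 0.50 for Scnn1b and Scnn1g, 0.48 for Slc26a3 and Aqp8, -0.63 for Slc26a3 and Atp12a and -0.45 for Slc26a3 and Scnn1a. On levels relative to the epithelium list, r was 0.75 for Scnn1a and Atp12a and -0.65 for Slc26a3 and Atp12a.

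**Figure D4:**
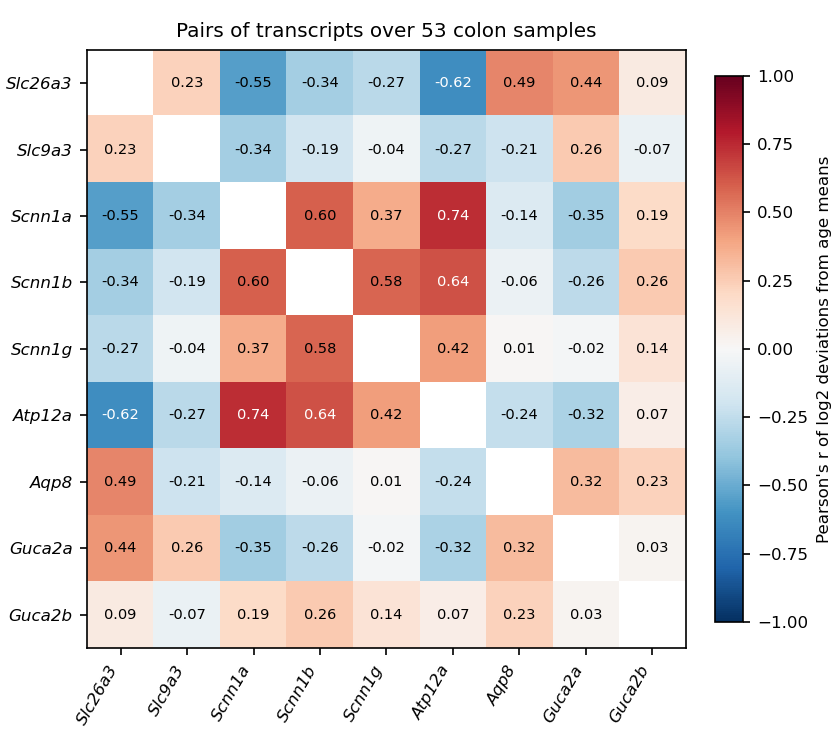
Pearson's r of the log2 deviations from age means for each of the 36 pairs of transcripts over 53 colon samples, from -1 (blue) to 1 (red). Scnn1a, Scnn1b, Scnn1g and Atp12a form a block of positive values with a highest r of 0.74, and Slc26a3 has its lowest r, -0.62, with Atp12a.

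Single samples picked from these same data illustrate the opposed deviations. PND 1 replicate 4 had Slc26a3 at 334.6, the highest of its age, while Scnn1a (62.65), Scnn1b (53.87) and Atp12a (48.06) were the lowest of that age and not above background. PND 15 replicate 5 was the opposite, with the highest Scnn1a (870.3), Scnn1b (575.7), Scnn1g (159.2) and Atp12a (1656) of its age and the lowest Slc26a3 (233.6) and Slc9a3 (1011). With both samples left out, r was 0.65 for Scnn1a and Atp12a and -0.54 for Slc26a3 and Atp12a. PND 1 replicate 4 also had the lowest goblet cell list of its age, at 8.28, and the highest small intestinal enterocyte list, at 8.42.

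**Figure D5:**
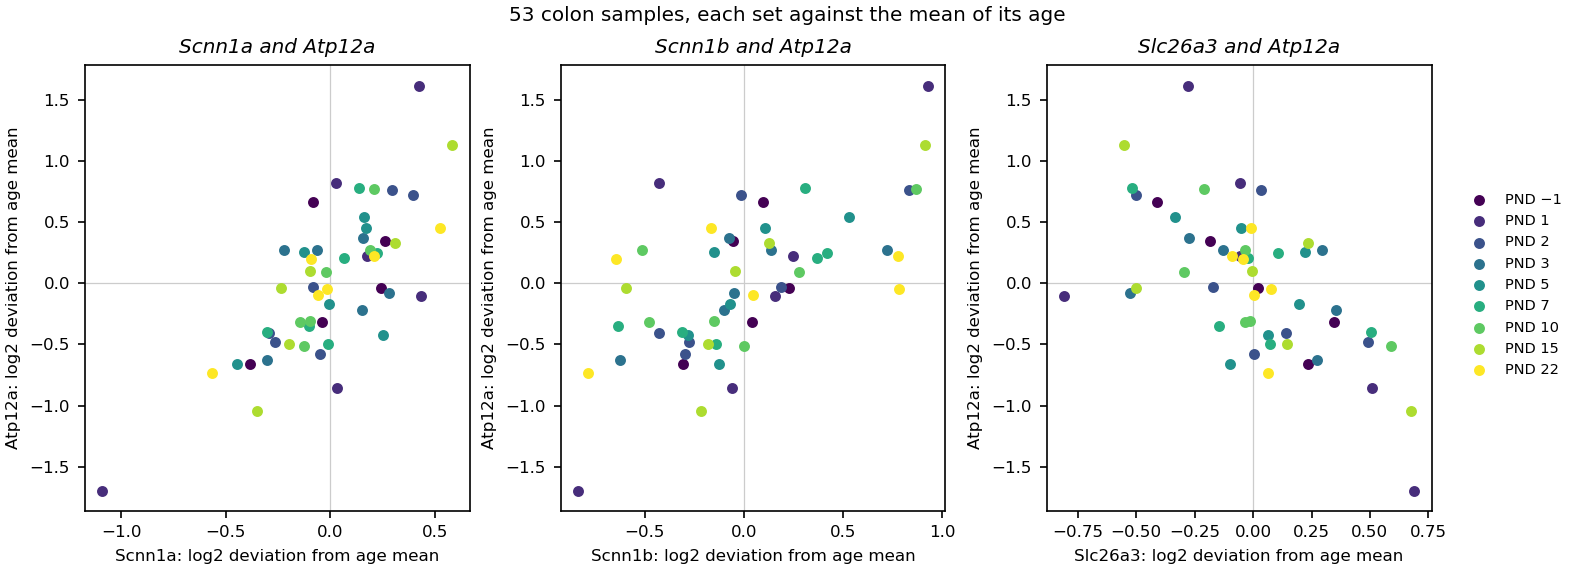
Log2 deviation of each of the 53 colon samples from the mean of its age, for Scnn1a, Scnn1b and Slc26a3 (horizontal axes) against Atp12a (vertical axes), coloured by age. Points rise to the right for both ENaC subunits and fall to the right for Slc26a3, and PND 1 replicate 4 lies at the end of each cloud with the lowest Atp12a.

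The deviations were also set against the marker lists. Among 81 relations between the 9 genes and 9 marker lists, 2 had an adjusted permutation p under 0.01 by Pearson's r. The share for other probes was not computed. The small intestinal enterocyte list of 7 genes varied with Slc26a3 (r = 0.63, rho = 0.56, adjusted permutation p = 0.00081 and 0.00216) and against Scnn1a (r = -0.56, rho = -0.57, adjusted permutation p = 0.00364 and 0.00162). For Atp12a and that list r was -0.54 and rho -0.55 (adjusted permutation p = 0.0157 and 0.00356). Without the 2 samples farthest from the median of the list, r was 0.58 for Slc26a3, -0.58 for Scnn1a and -0.62 for Atp12a. That list averaged 7.14 at PND 22, with samples at 6.91 to 7.44, against 8.68 at PND 3, with samples at 8.47 to 8.88. By rho but not by r, Aqp8 also varied with the small intestinal enterocyte list (r = 0.49, rho = 0.53, adjusted permutation p = 0.0237 and 0.00216). Guca2a likewise varied against the fibroblast and matrix list (r = -0.40, rho = -0.52, adjusted permutation p = 0.0737 and 0.00356). The part of the cells behind these lists in the deviations was not tested. Nor was that of the position of each sample along the colon, which is not given.

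The promoters of this opposed pair, and of the neighbouring guanylin genes with unlike levels in time, are given here as reference sequence. Of the 10 genes, 5 have a RefSeq promoter entry in GRCr8 whose 250 bases before the start lie outside the annotated gene, and 4 of these are shown, 5′ to 3′ on the strand of the gene. Capitals mark matches to any of 6 short motifs searched on both strands: TATAAA (the core promoter box), TTTATG (CDX), GTTAAT (part of an HNF1 site), CAAAGT (part of an HNF4 site), ACANNNTGT (steroid receptor) and GGGCGG (GC box).
Slc26a3, chr6:53751165-53751414, + strand: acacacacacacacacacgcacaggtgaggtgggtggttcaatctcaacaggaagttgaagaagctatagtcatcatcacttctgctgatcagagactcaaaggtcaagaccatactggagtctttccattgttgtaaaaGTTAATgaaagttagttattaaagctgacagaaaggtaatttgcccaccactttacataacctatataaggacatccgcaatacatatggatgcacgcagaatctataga
Atp12a, chr15:34558959-34559208, + strand: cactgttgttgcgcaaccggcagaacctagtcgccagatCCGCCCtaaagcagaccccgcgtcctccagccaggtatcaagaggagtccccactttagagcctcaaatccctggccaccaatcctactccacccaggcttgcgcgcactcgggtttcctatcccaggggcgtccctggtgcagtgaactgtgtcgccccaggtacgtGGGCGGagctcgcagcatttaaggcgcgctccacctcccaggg
Guca2a, chr5:138522196-138522445, + strand: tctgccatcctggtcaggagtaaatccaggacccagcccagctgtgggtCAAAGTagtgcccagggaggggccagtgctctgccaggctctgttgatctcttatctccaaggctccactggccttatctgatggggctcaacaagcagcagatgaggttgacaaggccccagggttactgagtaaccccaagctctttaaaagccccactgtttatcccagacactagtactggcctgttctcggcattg
Guca2b, chr5:138534211-138534460, - strand: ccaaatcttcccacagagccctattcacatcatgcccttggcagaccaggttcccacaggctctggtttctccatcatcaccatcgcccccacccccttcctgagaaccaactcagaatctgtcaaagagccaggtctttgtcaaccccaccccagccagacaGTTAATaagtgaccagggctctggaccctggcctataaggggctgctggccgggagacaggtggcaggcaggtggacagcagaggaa

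In these windows Slc26a3 holds GTTAAT from 110 to 105 bases before the start and Guca2b from 87 to 82, a motif that 6.45% of 33469 promoter windows hold. Atp12a holds GGGCGG from 43 to 38 bases before the start and, on the opposite strand, from 211 to 206, a motif found in 30.5% of windows. Guca2a holds CAAAGT from 201 to 196 bases before the start, as in 12.9% of windows. The shares for the others were 12.9% for TATAAA, 11.4% for TTTATG and 5.81% for ACANNNTGT. No match overlapped another, and a match is a description of letters, not a bound site.

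Among 8129 named probes detected in over 50% of colon samples, the profiles most like each gene over the 53 colon samples were taken by Pearson's r of log2 signal, which pools ages and within-age spread. Slc9a3 was nearest to Slc9a2 (0.947), the related exchanger NHE2, then Car4 (0.94), a membrane carbonic anhydrase, and Pparg (0.934), a nuclear receptor. Slc26a3 was nearest to Glrx (0.926), Rfk (0.917) and Prr13 (0.913). Scnn1a was nearest to Ethe1 (0.956), Prss32 (0.954) and Mfsd4a (0.944), and Atp12a to Fxyd4 (0.896), Prss32 (0.875) and Ethe1 (0.867). Scnn1b was nearest to Fxyd4 (0.902), a regulator of the sodium pump, Trpv1 (0.893) and Trak1 (0.877). Fxyd4 thus stood first for both Scnn1b and Atp12a. Aqp8 was nearest to Slc31a1 (0.853), Gchfr (0.838) and Plekha8 (0.823), Guca2a to Cd82 (0.888), Tst (0.871) and Nr1h4 (0.864), and the dim genes had lower values, with Padi2 (0.671), Ihh (0.668) and Trim36 (0.637) for Scnn1g, and Ifi30 (0.585), Ucp2 (0.547) and Sec24a (0.54) for Guca2b.

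Other genes of the same transport paths were counted in 6 lists for PND 22 compared with PND 3, beside a median of 0.00 over all probes, of which 24.4% were called and 11.7% were higher at PND 22. Of 13 measured exchangers and scaffolds of sodium chloride uptake (16 listed), 7 rose and 0 fell, with a median of 0.26. The monocarboxylate carrier Slc16a1 averaged 1840 at PND 22, against 507 at PND 3 (1.85 ± 0.12, SE; adjusted p = 9.3e-19), and the basolateral anion exchanger Slc4a2 rose by 1.55 (adjusted p = 5.15e-16). The scaffold ezrin, Ezr, rose by 0.59. Slc9a3r1, the scaffold that binds NHE3, differed by 0.15 (adjusted p = 0.57) over that span, and by 1.12 (adjusted p = 2.48e-07) between PND 15 and PND 22.

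Of 12 measured genes of the aldosterone axis (14 listed), 8 rose and 1 fell, with a median of 0.40. Sgk1, the aldosterone-induced kinase that keeps ENaC at the membrane, averaged 5460 at PND 22, against 2130 at PND 3 and 640 at PND -1 (1.36 ± 0.18 over PND 3, adjusted p = 1.66e-08). Nedd4, a ubiquitin ligase of the family that removes ENaC, was the gene that fell, at 217 in PND 22 samples, against 582 at PND 3 (-1.45, adjusted p = 5.36e-14). Nedd4l, listed from the same family, was not measured. Of 10 measured genes of the fibroblast and matrix list, 10 fell over the same span, with a median of -1.28. A link between that list and Nedd4 was not tested. Tsc22d3 rose by 0.42, and Stk39 differed by 0.16 (adjusted p = 0.237).

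Of 11 measured pump genes (14 listed), 2 rose and 1 fell, with a median of -0.01, where 24.4% of all probes were called. The sodium pump subunit Atp1b1 averaged 6960 at PND 22, against 3060 at PND 3 (1.18, adjusted p = 2.28e-15), and Fxyd4 2410, against 393 (2.59, adjusted p = 2.7e-07). Fxyd6 fell by 1.78, and Atp1b3 differed by -0.28 (adjusted p = 0.018). Of the 9 other aquaporins, 2 rose and 0 fell, with a median of 0.05, beside the same 24.4%. Aqp1 rose by 0.38 (adjusted p = 0.00873), while Aqp11 at -0.22, Aqp9 at 0.00 and Aqp7 at 0.01 were not called.

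Of 13 measured genes of chloride and potassium secretion (16 listed), 6 rose and 0 fell, with a median of 0.43. The adenosine receptor Adora2b averaged 472 at PND 22, against 84.9 at PND 3 (2.46, adjusted p = 4.37e-25), the chloride channel Clcn2 672, against 128 (2.40, adjusted p = 2.38e-26), and the potassium channel Kcnn4 558, against 226 (1.30, adjusted p = 2.25e-11). Clcn3 rose by 0.93. Of 8 measured genes of the guanylin receptor and cGMP path (9 listed), 3 rose and 1 fell, with a median of 0.12. Gucy2c, the guanylin receptor itself, averaged 203 at PND 22, against 135 at PND 3 (0.58, adjusted p = 0.000303). The protease Mep1a rose by 0.75 and the cGMP phosphodiesterase Pde5a by 0.41, and Prkg1, a cGMP-dependent kinase of smooth muscle, fell by 0.59 (adjusted p = 0.000861). Of 8 measured genes of the smooth muscle list, 3 fell and 0 rose over the same span, with a median of -0.46. A link between that list and Prkg1 was not tested.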

How the data were processed

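RNA of rat colon and right brain hemisphere was labelled by the Illumina TotalPrep protocol and hybridised to RatRef-12 BeadChips, and the authors extracted average bead signals in BeadStudio. The deposited intensity values are linear and not normalised between arrays, and the deposited p-values are detection p-values against the negative controls of each array. The authors also deposited quantile-normalised intensity values, used as an alternative. The colon replicate 1 of PND -1, which the authors removed as an outlier, was not used here.

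The deposited signals were quantile normalised over all 107 arrays, set to a floor of 1 and taken to log2 (R 4.3.3, limma version 3.58.1 and the data.table package, version 1.17.8). Plots used matplotlib 3.10.9 under Python 3.11.15, and numpy 2.4.6. Each fit used the 22523 probes together, with 1 mean per age and eBayes moderation, in each tissue apart and over both tissues for contrasts between them. Adjusted p-values are those of limma after Benjamini-Hochberg correction across the 22523 probes, with 0.01 as the threshold for a call. Exact permutation tests were two-sided, and the smallest p that 6 against 6 or 6 against 5 samples allow is 0.00216. The number of arrays limits the precision. No arrays held identical values. The functions were tested on simulated data.

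Probes were named from the platform annotation, in which 8730 probes have no symbol, and 13752 named probes matched a RefSeq gene ID (GRCr8). From each transport list, up to 4 genes are named: the brightest in colon among those called over the 9 ages, then the brightest not called. The 3 genes of most similar profile are named for each gene detected in over 50% of colon samples. The genes, the lists and these rules were chosen with earlier results of these data known. Alternatives were normexp background correction, scaling to the 75th percentile, normalisation within tissue, the authors' normalised values, a detection filter, a floor of 16, trend and robust moderation, a replicate block, unmoderated tests, levels relative to the epithelium list and leaving out each sample.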

Additional observations from a re-analysis of the deposited data

Results flagged for a closer look

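In colon, 81 groups of 5 or 6 samples (9 genes at 9 ages) were examined for a sample far from the rest of its age, and 6 had such a sample, where chance flags about 1 in 20, or 4.05. Slc26a3 was 289 in PND 10 replicate 6, against 156 to 190 in the others. Slc9a3 was 1010 in PND 15 replicate 5, against 1420 to 1700, and Scnn1g was 159 in that same sample, against 95 to 105. Scnn1a was 62.6 in PND 1 replicate 4, against 136 to 180. Aqp8 was 208 in PND -1 replicate 4, against 90.2 to 97.6, and 225 in PND 1 replicate 1, against 64.4 to 96.3. In brain 3 of 81 groups had such a sample.

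The change between PND 3 and PND 22 differed between the tissues, tested as colon change minus brain change, for 7 genes. The differences were 2.64 for Slc26a3, 2.81 for Slc9a3, 2.23 for Scnn1a, 1.74 for Scnn1b, 1.64 for Atp12a, 1.69 for Aqp8 and 0.77 for Guca2a, all above 0. Most of these probes were at background in brain.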

How the results depend on the processing

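Of 1287 values under alternative settings, 1250 kept their direction and their side of the threshold, 19 lost and 12 gained a call, and 6 reversed. Of 2232 values with 1 sample left out, 2151 kept both, 75 lost and 6 gained a call, and 0 reversed. Values that were not called changed sign in 16 and 40 of them. The reversals all came from levels relative to the epithelium list, which lowers every value by the rise of that list: Guca2a was -0.022 for PND 22 compared with PND 3, Guca2b -0.60 there and -0.70 compared with PND -1, and Scnn1g -0.60, -0.42 and -0.66 for PND 22 compared with PND 15, PND 3 and PND -1. On that scale the probes called numbered 22072 over the ages, 447 for PND 1 compared with PND -1, 250 for PND 3 with PND 1, 256 for PND 15 with PND 10, and 20883, 21262 and 21363 for PND 22 with PND 15, PND 3 and PND -1.

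For PND 15 compared with PND 10, 0 of the 9 genes was called after normexp correction (Slc26a3 adjusted p = 0.0105) or after each array was scaled to its 75th percentile (adjusted p = 0.014). For PND 1 compared with PND -1, that scaling called 3795 probes and 2 genes, the unmoderated test 0 genes, and its unadjusted p 2347 probes and 4 genes. For PND 7 compared with PND 5, the scaling called 565 probes and the unadjusted p 1451. The unadjusted p called 1544 probes for PND 3 compared with PND 1, 2759 for PND 10 with PND 3 and 1468 for PND 15 with PND 10. Atp12a at PND 22 compared with PND 15 lost its call after normexp correction (adjusted p = 0.0109), and Scnn1g at PND 22 compared with PND 3 after scaling (adjusted p = 0.0278). Over the ages in brain, the scaling took out Slc9a3 (adjusted p = 0.032) and brought in Scnn1b (adjusted p = 0.00293). With 1 sample left out, 0 to 2 genes were called for PND 1 compared with PND -1 and 0 to 1 for PND 15 with PND 10. The probes called ranged over 248 to 410 for PND 3 with PND 1, 170 to 300 for PND 7 with PND 5 and 268 to 483 for PND 15 with PND 10. The cause was not tested for any of these.

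The labels do not say whether colon and brain samples of an age with the same number came from 1 pup, and not every such pair correlated above 0.1. Colon and brain samples of an age with the same number had a median correlation of deviations of 0.176 (lowest -0.0368, with 81.1% above 0.1), against -0.0344 for unlike numbers, and 45 of 53 colon samples correlated best with their own number in brain. With the replicate block, 8238 probes were called over the ages in colon, 5490 for PND 22 compared with PND 3, 9060 for colon compared with brain at PND 22 and 5353 for the interaction. The block took Scnn1b out of the colon and brain comparison at PND -1 (adjusted p = 0.012) and brought Scnn1g into the interaction (adjusted p = 0.00502). Each gene has 1 probe, so the mean over probes gave no other value.

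The limits are the dim probes of Scnn1g, Guca2b and, before PND 22, Aqp8, which lie near the detection limit. Further limits are the single dam at PND -1, the unstated position of the samples along the colon, and the use of unseparated tissue. In it the marker lists of cell types moved with age, and the shares of the cells were not measured. The unnamed probes were not searched for Cftr.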
